A study of Danio rerio with 6 samples.

Results

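Enterocytes take up nutrients across the brush border of the gut, and goblet cells between them secrete its mucus. The 10 zebrafish genes described here mark these 2 epithelial cell types, and were measured by RNA-seq in pools of whole larvae reared with leachate from tire wear particles (TWP). They were taken by gene symbol from the deposited table, and all 10 of the 10 symbols were found among the 24826 genes it holds. Of these, 8 mark enterocytes, namely fabp2, fabp1b.1, slc15a1b, anpepb, alpi.1, vil1, cdh17 and cdx1b, and 2 mark goblet cells, agr2 and muc2.1. cdx1b and several of the others are also active outside these cells, so the label describes their best-known site. The leachate group was 3 pools of wild-type larvae given TWP 700 leachate, and the control group was 3 pools of wild-type larvae in a surfactant control medium with 0.001% bovine serum albumin. Whether the leachate medium held albumin is not said, so leachate and surfactant medium cannot be told apart if it did not. The number 700 is used here as a name, since titles and design text describe it differently. Exposure ran from 4 h to 168 h after fertilization in dishes of 200 eggs, larvae were moved to clean dishes at 72 h, and each pool held 80 of them. Feeding of the larvae is not mentioned in the labels.

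By this age the zebrafish gut is open and lined by one layer of absorptive enterocytes with scattered goblet and enteroendocrine cells. Enterocytes of the anterior gut digest peptides and phosphate esters at the microvilli and package dietary fat, while more posterior ones take up whole protein into lysosomes. The homeodomain factor Cdx1b directs intestinal differentiation in zebrafish, and mucins folded with the help of the disulfide isomerase Agr2 form the goblet cell secretion.

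Of the 10 genes, 5 rose in leachate pools: agr2, anpepb, alpi.1, vil1 and cdh17. Their log2 fold changes of leachate over control lay between 0.77 (cdh17) and 1.63 (agr2). cdx1b fell (log2 -0.69 ± 0.21, SE). The other 4 did not pass the test, among them both fatty acid carriers. The fitted means of these 2 carriers were about as far apart as those of the called genes. Their control pools were more scattered than those of the called genes, and why they did not pass was not tested. A gene was called at an adjusted p under 0.05 in edgeR's quasi-likelihood test, with Benjamini-Hochberg adjustment over the 23761 genes tested. Across all of those genes 15.2% were called, 7.87% higher and 7.29% lower in leachate pools. The median log2 fold change was 0.84 over the 10 genes and -0.0026 over all genes tested. In library-scaled read counts, pools of the 2 groups did not overlap in 9 of the 10 genes. Leachate pools were above in 7 and below in 2, cdx1b and muc2.1, and those 2 overlapped in deposited TPM. In library-scaled counts the groups were separate in 35.1% of all genes tested, 17.9% above and 17.1% below.

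All 10 genes passed the filter on low counts. Total counts per pool lay between 37030725 and 48431952. The second principal component, with 20.4% of the variance, set control 2 apart (43.0, other controls -31.0 and -16.7) and placed leachate 1 (17.9) away from the other leachate pools (-7.18 and -5.98). Several results are therefore given without control 2 too, and some without leachate 1 or without both pools. Levels are library-scaled read counts (CPM, TMM scaling) when pools are compared, and deposited TPM, which corrects for length, when genes are compared. Sums over several genes are also in TPM, which is not TMM-scaled, so their differences between groups are not on the scale of the fit. In pools of whole larvae, a change in the number of cells of a type and a change in RNA per cell cannot be told apart. This holds for genes that rose and for genes that fell.

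The genes spanned a wide range of levels per length. In leachate pools fabp2 led with 829 ± 63.6 TPM, ahead of fabp1b.1 with 607 ± 96.1 TPM (SD, n = 3 each), and in control pools they stood at 354 ± 145 and 265 ± 108 TPM. By mean TPM fabp2 lay above 99.1% of the genes in the table and fabp1b.1 above 98.9%, while cdx1b lay above 39.2% and muc2.1 above 36.7%. A middle tier held slc15a1b, anpepb, vil1, agr2 and cdh17, with means between 43.8 and 97.5 TPM in leachate pools and between 14.4 and 73.3 TPM in control pools. alpi.1 followed at 6.74 ± 0.591 TPM in leachate pools and 3.23 ± 0.681 TPM in control pools. cdx1b averaged 2.13 ± 0.781 TPM in leachate pools and 3.04 ± 0.677 TPM in control pools. muc2.1 averaged 2.11 ± 0.551 TPM in leachate pools and 2.56 ± 0.472 TPM in control pools. The order was the same in both groups except for agr2, which ranked 6 in leachate pools and 7 in control pools, changing places with cdh17. Neighbours in this order whose pools overlapped in both groups were slc15a1b with anpepb, anpepb with vil1, and cdx1b with muc2.1, so these ranges do not resolve their order. In leachate pools agr2 and cdh17 also overlapped, and in control pools fabp2 with fabp1b.1 and alpi.1 with cdx1b did. Compared within each pool, however, agr2 was above cdh17 in all 3 leachate pools and fabp2 above fabp1b.1 in all 3 control pools. alpi.1 was above cdx1b in 2 of the 3 control pools. slc15a1b was above anpepb, and cdx1b above muc2.1, in all 3 control pools but in 2 of the 3 leachate pools. anpepb was above vil1 in all 3 leachate pools but in 2 of the 3 control pools. Together the 10 genes made up between 1693 and 1941 TPM in leachate pools and between 475 (control 2) and 1003 TPM in control pools. Most of these sums came from fabp2 and fabp1b.1, which did not pass the test, so they do not describe the 10 genes evenly.

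**Figure D1:**
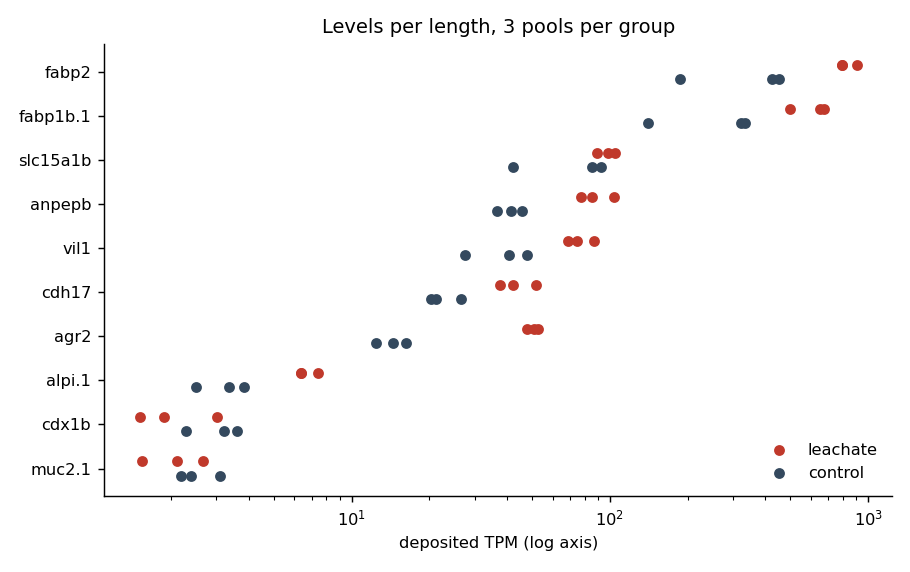
Deposited TPM of each gene on a log axis, with 1 point per pool (3 leachate pools above, 3 control pools below in each row) and genes ordered by their mean. The 2 fatty acid carriers stand above the rest, up to 902 TPM in a leachate pool and down to 140.3 TPM in a control pool, and cdx1b and muc2.1 lie at the bottom.

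Of the 2 brush border hydrolases, anpepb encodes an aminopeptidase that trims peptides at the microvillus surface. It was at 231, 229.7 and 206 CPM in leachate pools, against 119.8, 99.9 and 132 CPM in control pools. All leachate pools lay above all control pools, and neither group had a pool far from its mean. The gene rose 1.90-fold (log2 0.92 ± 0.14, edgeR adjusted p = 0.00135). alpi.1 encodes an intestinal alkaline phosphatase, an enzyme that in vertebrates also removes phosphate from bacterial lipopolysaccharide. It was at 9.46, 9.81 and 9.77 CPM in leachate pools, against 5.77, 3.92 and 6.06 CPM in control pools. Leachate pools were close to each other, with a coefficient of variation of 2.03%, and control 2 was the lowest of the controls. alpi.1 rose 1.84-fold (log2 0.88 ± 0.17, edgeR adjusted p = 0.00598) on counts of 372 to 428 in leachate pools and 144 to 278 in control pools. Without control 2 the log2 fold change of alpi.1 was 0.71 (edgeR adjusted p = 0.00466).

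vil1 and cdh17 belong to the structure of the absorptive cell. vil1 encodes villin, which bundles the actin core of microvilli, and was at 193, 200.1 and 184 CPM in leachate pools, against 125, 75.5 and 128 CPM in control pools. Its leachate pools again differed little, and control 2 was well below the other controls. vil1 rose 1.75-fold (log2 0.81 ± 0.19, edgeR adjusted p = 0.0150), a call that was lost without leachate 2 (adjusted p = 0.0555). Without control 2 its log2 fold change was 0.60 (adjusted p = 0.00439). cdh17 encodes LI-cadherin, an adhesion protein of intestinal epithelium, and was at 117, 115 and 102 CPM in leachate pools, against 71.0, 56.5 and 68.4 CPM in control pools. The groups did not overlap. cdh17 rose 1.71-fold (log2 0.77 ± 0.13, edgeR adjusted p = 0.00245). It is also a gene of the pronephros list read below, and which tissue its reads came from was not tested. On the TPM scale the ratio of vil1 to cdh17 was 1.68 to 1.83 in leachate pools and 1.36 to 1.91 in control pools, so these ranges overlapped.

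The transporters and lipid carriers did not pass the test. fabp2 encodes the intestinal fatty acid binding protein, an abundant cytosolic carrier of enterocytes. It was at 365, 503 and 445 CPM in leachate pools, against 232, 105 and 298 CPM in control pools. The lowest leachate pool was above the highest control, but control 2 was far below both other controls. The fitted log2 fold change was 1.05 ± 0.35 (edgeR adjusted p = 0.0935). fabp1b.1, a second cytosolic carrier of long-chain fatty acids, was at 159, 259 and 248 CPM in leachate pools, against 120.9, 55.0 and 151 CPM in control pools. Leachate 1 lay only just above control 3, and control 2 was again the lowest pool. Its log2 fold change was 1.03 ± 0.39 (edgeR adjusted p = 0.139). Without control 2 the estimate fell to 0.72 for fabp2 (adjusted p = 0.0124) and 0.71 for fabp1b.1 (adjusted p = 0.0376), both then past the threshold with smaller differences and less scatter. fabp2 also passed without control 3 (log2 1.37, adjusted p = 0.0384), with DESeq2 (0.00228), limma-voom (0.0384), library totals (0.0444) and the robust option off (0.0463), and fabp1b.1 with limma-voom (0.0488). Without control 2 and leachate 1 together both passed, fabp2 at log2 0.84 (adjusted p = 1.08e-04) and fabp1b.1 at log2 0.90 (adjusted p = 1.50e-05). Of the 18 alternatives, however, fabp2 did not pass in 11 and fabp1b.1 in 15. Neither passed without control 1 or without any single leachate pool. Without leachate 1 alone the log2 fold change was 1.16 for fabp2 (adjusted p = 0.175) and 1.22 for fabp1b.1 (adjusted p = 0.155). The TPM ratio of fabp2 to fabp1b.1 was 1.59, 1.34 and 1.22 in leachate pools and 1.32, 1.33 and 1.35 in control pools, so the 2 carriers kept nearly one proportion in the controls, control 2 included.

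slc15a1b encodes the peptide transporter Pept1, which brings di- and tripeptides into enterocytes. It was at 177, 226 and 191 CPM in leachate pools, against 180.4, 92.7 and 236 CPM in control pools. It was the one gene of the 10 whose groups overlapped in CPM, and controls 1 and 3 lay within or above the leachate pools. The log2 fold change was 0.22 ± 0.31 (edgeR adjusted p = 0.684), and without control 2 it was -0.07 ± 0.15 (adjusted p = 0.805). A p above the threshold does not show that the groups were alike. The anpepb to slc15a1b ratio in TPM was 1.05, 0.817 and 0.868 in leachate pools, against 0.534, 0.867 and 0.450 in control pools, where control 2 reached the leachate range.

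**Figure D2:**
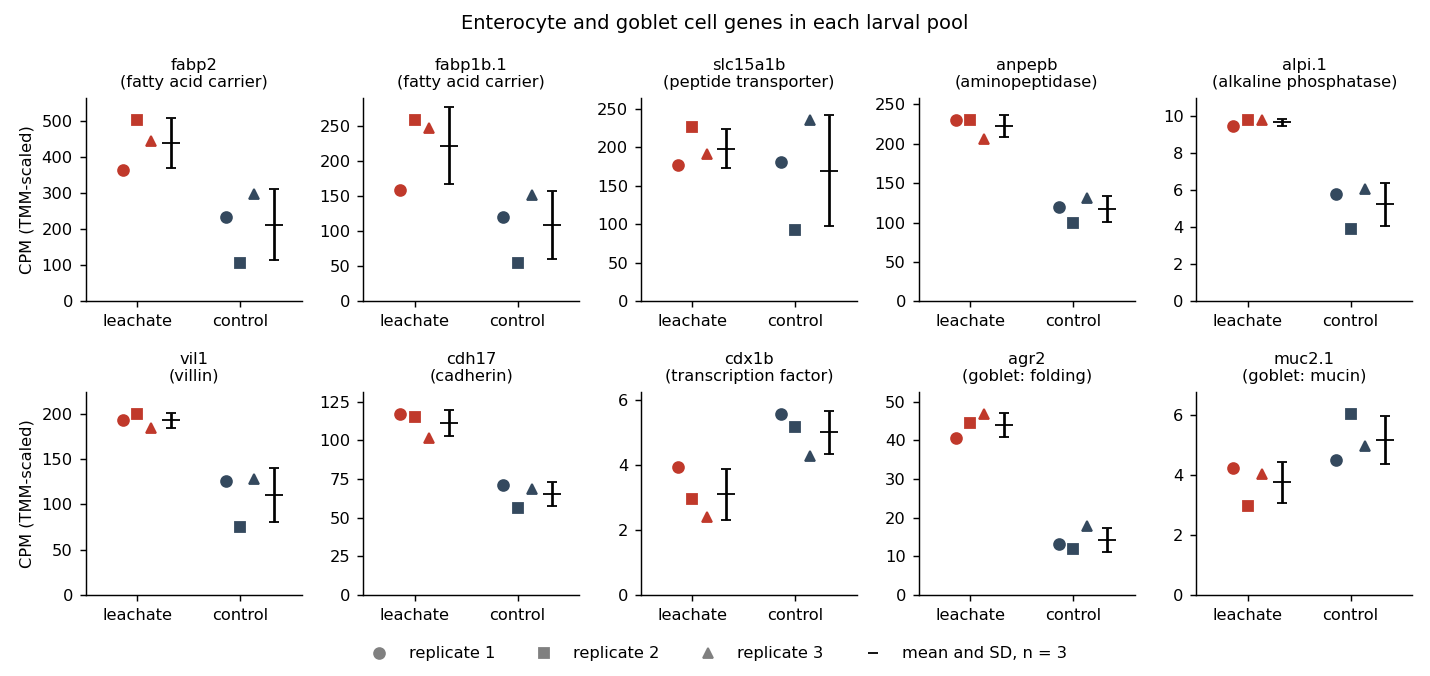
CPM of each gene in each pool (leachate pools left, control pools right; circles, squares and triangles are replicates 1 to 3, black bars the mean and SD of 3 pools), every axis starting at 0. The groups overlap for slc15a1b, and control 2 (dark square) is the lowest control for fabp2, fabp1b.1, slc15a1b, anpepb, alpi.1, vil1, cdh17 and agr2.

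cdx1b was the transcription factor of the group and the one gene that fell. It was at 3.94, 2.96 and 2.39 CPM in leachate pools, against 5.59, 5.17 and 4.29 CPM in control pools. In CPM leachate pools lay below every control pool, though leachate 1 was close to control 3. On the TPM scale the groups overlapped, with leachate 1 at 3.01 TPM and control 3 at 2.30 TPM. The log2 fold change was -0.69 ± 0.21 (edgeR adjusted p = 0.0488) on counts of 91 to 175 in leachate pools and 177 to 269 in control pools. This call sits at the threshold and was lost in 8 of the 18 alternatives. It was lost without leachate 2 (adjusted p = 0.152), leachate 3 (0.162), control 1 (0.166) or control 2 (0.0657), and with library totals as the scaling (0.144). The same held with no filter (0.0509), with the robust option off (0.0532) and at the stricter adjusted p under 0.01. cdx1b passed without leachate 1 (log2 -0.90, adjusted p = 0.0241) or control 3 (log2 -0.80, adjusted p = 0.0482). It also passed when control 2 and leachate 1 were both left out (log2 -0.88, adjusted p = 0.00864). Its direction was the same in all 18 alternatives run, with log2 fold changes between -0.90 and -0.54.

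The 2 goblet cell genes differed from each other. agr2, which encodes a disulfide isomerase needed to fold mucins, was at 40.6, 44.4 and 46.95 CPM in leachate pools, against 13.1, 11.8 and 17.8 CPM in control pools. Every leachate pool was at more than 2 times the level of the highest control. agr2 rose 3.09-fold (log2 1.63 ± 0.15, edgeR adjusted p = 8.51e-05), and its log2 fold change stayed between 1.51 and 1.82 over all alternatives. muc2.1 encodes a gel-forming secreted mucin and was at 4.23, 2.98 and 4.05 CPM in leachate pools, against 4.49, 6.04 and 4.97 CPM in control pools. The groups did not overlap in CPM, leachate 1 lying just under control 1. On the TPM scale they overlapped, with leachate 1 at 2.65 TPM, control 1 at 2.39 TPM and control 3 at 2.19 TPM. Its log2 fold change was -0.46 ± 0.20 (edgeR adjusted p = 0.140) on counts of 130 to 188 in leachate pools and 205 to 222 in control pools, and it did not pass the test in any alternative. The TPM ratio of agr2 to muc2.1 was 19.9, 30.9 and 24.1 in leachate pools, against 6.03, 4.04 and 7.40 in control pools, without overlap. agr2 alone was already separate in TPM, at 47.9 or more in leachate pools and 16.2 or less in control pools. The ratio therefore mostly repeats that difference. With 3 pools against 3 an exact two-sided permutation test of such a ratio cannot give a p below 0.1. In zebrafish agr2 is also expressed in mucous cells of the skin, and the 2 genes were read at very different depths.

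**Figure D3:**
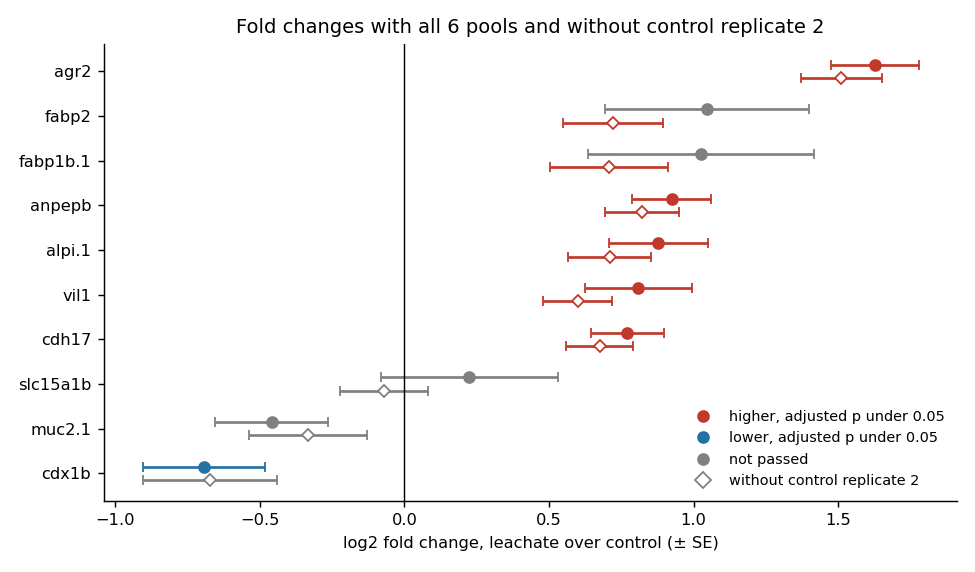
Leachate over control as log2 fold change (bars are the SE) per gene, with all 6 pools (filled circles) and without control 2 (open diamonds), coloured by whether that fit passed an adjusted p of 0.05. agr2 is highest at 1.63, fabp2 and fabp1b.1 pass without control 2 but not with all pools, slc15a1b stays near 0, and cdx1b does not pass without control 2.

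Within groups the pools did not vary by the same amount for every gene. Among controls the log2 range from lowest to highest pool was widest for fabp2, 1.46 for fabp1b.1 and 1.35 for slc15a1b, then 0.77 for vil1 and 0.63 for alpi.1, and at most 0.59 for the other 5. Control 2 was the lowest control in 8 of the 10 genes, cdx1b and muc2.1 being the exceptions. Its log2 ratio to the control mean was -1.01 for fabp2, -0.99 for fabp1b.1 and -0.87 for slc15a1b, against -0.21 for cdh17 and -0.23 for anpepb. Leachate pools were closer together than controls for 8 of the 10 genes, all but cdx1b and muc2.1, with log2 ranges of 0.05 for alpi.1, 0.12 for vil1 and 0.16 for anpepb, and up to 0.72 for cdx1b and 0.71 for fabp1b.1. Exocrine pancreas genes also stood apart in control 2: the 17 measured summed to 18727 TPM in control 2, against 45208 TPM in control 1 and 45419 TPM in control 3, and to between 27801 and 28272 TPM in leachate pools. Their part in the result was not tested.

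**Figure D4:**
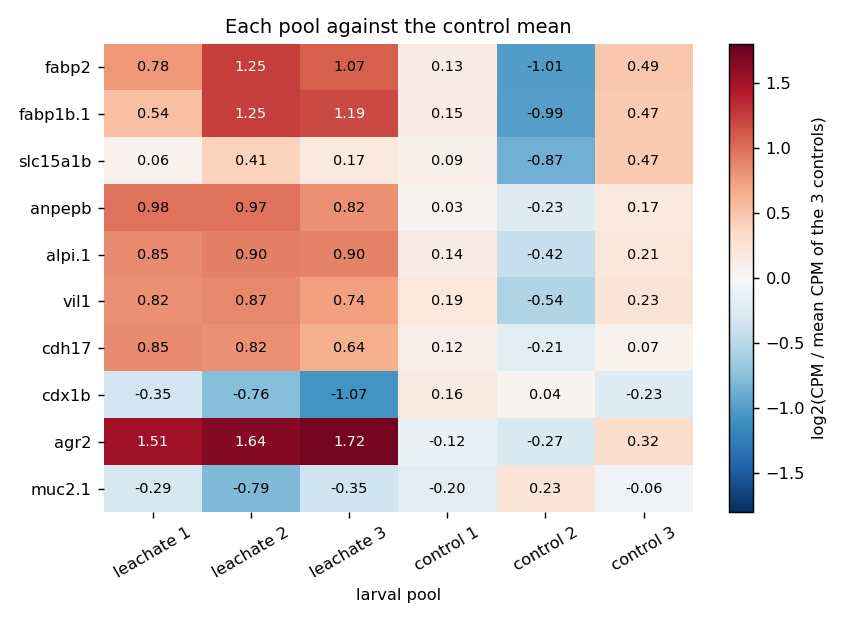
Log2 ratio of each pool's CPM to the mean CPM of the 3 controls (rows are genes, columns are pools, leachate pools left; red is above and blue below the control mean). Control 2 is low for fabp2, fabp1b.1 and slc15a1b (-1.01 to -0.87), while agr2 is high in every leachate pool (1.51 to 1.72).

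Of 14 paralogs of the 10 genes written down, 12 were in the table. Of these, 1 was called higher, a share of 8.33% beside 7.87% over all genes tested. The median log2 fold change over the 12 was 0.44. alp3, another alkaline phosphatase gene, rose (22.2 ± 3.03 CPM in leachate pools and 15.3 ± 2.24 CPM in control pools, SD, n = 3 each, log2 0.54, edgeR adjusted p = 0.0288). That call was lost without leachate 2, leachate 3 or control 1. In other settings 3 paralogs passed without control 3, 5 without control 2 and leachate 1 together, and 6 with library totals as the scaling. Over all genes those settings called 1551, 2648 and 2809 higher, in that order, against 1871 with all pools and TMM scaling. alpi.2, which neighbours alpi.1 in RefSeq's GRCz12tu annotation, was at 20.7 ± 4.75 CPM in leachate pools and 11.1 ± 4.55 CPM in control pools (log2 0.90, edgeR adjusted p = 0.108). Its estimate was close to that of alpi.1 with a larger error. fabp1b.2, the neighbour of fabp1b.1, was at 0.358 ± 0.151 CPM in leachate pools and 0.227 ± 0.0895 CPM in control pools. How the authors' counting divided reads between such tandem copies is not given, so values of alpi.1, alpi.2, fabp1b.1 and fabp1b.2 are uncertain to that extent. fabp6, the bile acid carrier of ileal-type enterocytes, was at 222 ± 27.6 CPM in leachate pools and 242 ± 52.6 CPM in control pools (log2 -0.12, edgeR adjusted p = 0.70). For anpepa the log2 fold change was 0.56 (adjusted p = 0.147), for slc15a1a 0.49 (0.0736) and for slc15a2 0.38 (0.0657), all with leachate pools above control pools. cdx1a, the other cdx1 gene, was at 4.19 ± 0.895 CPM in leachate pools and 3.83 ± 0.523 CPM in control pools (log2 0.13, adjusted p = 0.728). vill, fabp1a, avil and cdx4 had log2 fold changes between 0.09 and 0.51 and did not pass either.

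Wider lists of absorptive cell genes were read from the same fit, with the 10 genes left out of each. These lists were written with earlier results of these data known, so their shares are a description and not an independent test. Over 4 lists (brush border structure, brush border digestive enzymes, nutrient transporters and lipid absorption) 24 of 109 tested genes rose, which is 22.0%, and 3 fell. Over all genes tested 7.87% rose and 7.29% fell, or 1871 and 1731 genes. Without control 2 the list counts were 23 and 8, beside 2063 and 1996 over all genes. They were 31 and 10 without control 2 and leachate 1 together (all genes 2648 and 2606). With library totals they were 32 and 1 (all genes 2809 and 868). Many of these genes are also expressed in liver or kidney, so the lists are not specific to the gut.

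Digestive enzymes held the most calls, with 9 of 22 higher and 1 lower (median log2 fold change 0.25). ggt1b, a gamma-glutamyltransferase gene, was at 12.0 ± 1.36 CPM in leachate pools and 4.11 ± 0.249 CPM in control pools (log2 1.55 ± 0.14, edgeR adjusted p = 8.51e-05). enpp7.1, which encodes an alkaline sphingomyelinase, was at 47.2 ± 5.39 CPM in leachate pools and 17.2 ± 3.85 CPM in control pools (log2 1.46 ± 0.17, edgeR adjusted p = 3.48e-04). The others that rose were the peptidase genes ace, mep1a.1, mep1a.2 and naalad2, the disaccharidase gene lct, and the sphingolipid hydrolase genes smpdl3b and asah2, with log2 fold changes between 0.71 and 1.29. These 7 were singled out after their values were seen. The count that rose was 9 or 10 whichever pool was left out. The count that fell was 0 without leachate 1, leachate 2, control 1 or control 3 and with library totals, and 2 without control 2.

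In the lipid absorption list 7 of 31 rose and 1 fell (median 0.27). npc1l1, which encodes the sterol uptake protein of the brush border in mammals, was at 65.6 ± 5.75 CPM in leachate pools and 18.1 ± 4.93 CPM in control pools (log2 1.85 ± 0.18, edgeR adjusted p = 1.45e-04). apoa4a, an apolipoprotein gene, was at 9.56 ± 0.758 CPM in leachate pools and 1.81 ± 0.306 CPM in control pools (log2 2.39 ± 0.18, edgeR adjusted p = 2.09e-05). soat2, whose product esterifies cholesterol, fell to 5.90 ± 0.514 CPM in leachate pools, against 19.8 ± 4.35 CPM in control pools (log2 -1.75 ± 0.17, edgeR adjusted p = 1.12e-04). When control 1 was left out 4 of these genes rose, and when control 2 was left out 5 rose and 2 fell.

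Among nutrient transporters 6 of 32 rose and 1 fell (median 0.28). slc7a7, a basolateral exporter gene of cationic amino acids, was at 22.2 ± 0.498 CPM in leachate pools and 10.9 ± 3.51 CPM in control pools (log2 1.02 ± 0.20, edgeR adjusted p = 0.00704). slc51a, a bile acid exporter subunit gene, was at 33.1 ± 3.36 CPM in leachate pools and 20.5 ± 2.92 CPM in control pools (log2 0.69 ± 0.13, edgeR adjusted p = 0.00535). The glucose transporter gene slc5a1 had a log2 fold change of 0.32 and did not pass. Leaving out single pools, 4 (leachate 2, leachate 3 or control 1) to 7 (control 2) rose, and 3 fell without control 2.

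In brush border structure 2 of 24 genes passed, both higher, a share of 8.33% beside the background of 7.87%. The 2 were myo7bb, a microvillus myosin gene (57.8 ± 3.67 CPM in leachate pools and 25.9 ± 6.08 CPM in control pools, log2 1.16), and ezra, which encodes an ezrin (54.1 ± 0.855 CPM in leachate pools and 32.1 ± 4.12 CPM in control pools, log2 0.75). The microvillus tip link genes cdhr2, cdhr5b and cdhr5a had log2 fold changes of -0.09, -0.08 and -0.42, and none passed.

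Other intestinal cell types were read in the same way, beside shares of 7.87% higher and 7.29% lower over all genes tested. When single pools were left out, those all-gene counts lay between 970 and 2063 higher and between 896 and 1996 lower. In the lysosome-rich enterocyte list 2 of 19 passed, both higher (median log2 fold change -0.002), and the endocytic receptor genes cubn and amn did not pass. None of its genes was called higher without leachate 2 or control 1, and 2 were called lower without control 2. Among 25 other goblet and mucus genes 3 rose and 4 fell (median 0.05), and with library totals 5 were higher and 1 lower. clca1, which encodes a protein secreted with mucus in mammals, fell to 10.1 ± 0.515 CPM in leachate pools, against 26.8 ± 9.47 CPM in control pools (log2 -1.41 ± 0.23, edgeR adjusted p = 0.00397). Among the 3 that rose were pdia5 (log2 0.60) and galnt6 (log2 0.46), and muc13a (log2 -1.13) was also among the 4 that fell. spdef, a transcription factor gene of secretory cells, had a log2 fold change of 0.24 and did not pass. The goblet list held 1 lower call without leachate 3, and none higher without leachate 3 or control 1.

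Enteroendocrine genes gave 2 of 30 higher and 2 lower, or 6.67% each way, beside 7.87% and 7.29% over all genes tested. The higher ones were gcga (log2 0.55) and insm1a (log2 0.46), and the lower ones chga (log2 -0.41) and neurod1. neurod1, also a gene of neurons and retina, was at 55.4 ± 5.68 CPM in leachate pools and 137 ± 16.3 CPM in control pools (log2 -1.30 ± 0.13, edgeR adjusted p = 1.42e-04). Of 26 intestinal transcription factor genes 2 rose and 2 fell, or 7.69% each way (median 0.002). hnf4a, a main regulator of enterocyte genes, was among the 22 that did not pass, with a log2 fold change of 0.03. In the list of BEST4-type cells and secretory ion transport 2 of 12 rose and 1 fell. The carbonic anhydrase genes ca2 (log2 0.62 ± 0.13, edgeR adjusted p = 0.00767) and ca4b (log2 -1.81 ± 0.23, edgeR adjusted p = 8.64e-04) moved in opposite directions. Leaving out single pools gave 0 to 2 enteroendocrine genes higher and 1 to 4 lower, and 0 to 2 transcription factor genes in either direction. In the list with the carbonic anhydrases 1 gene was higher without leachate 2, leachate 3, control 1 or control 3.

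**Figure D5:**
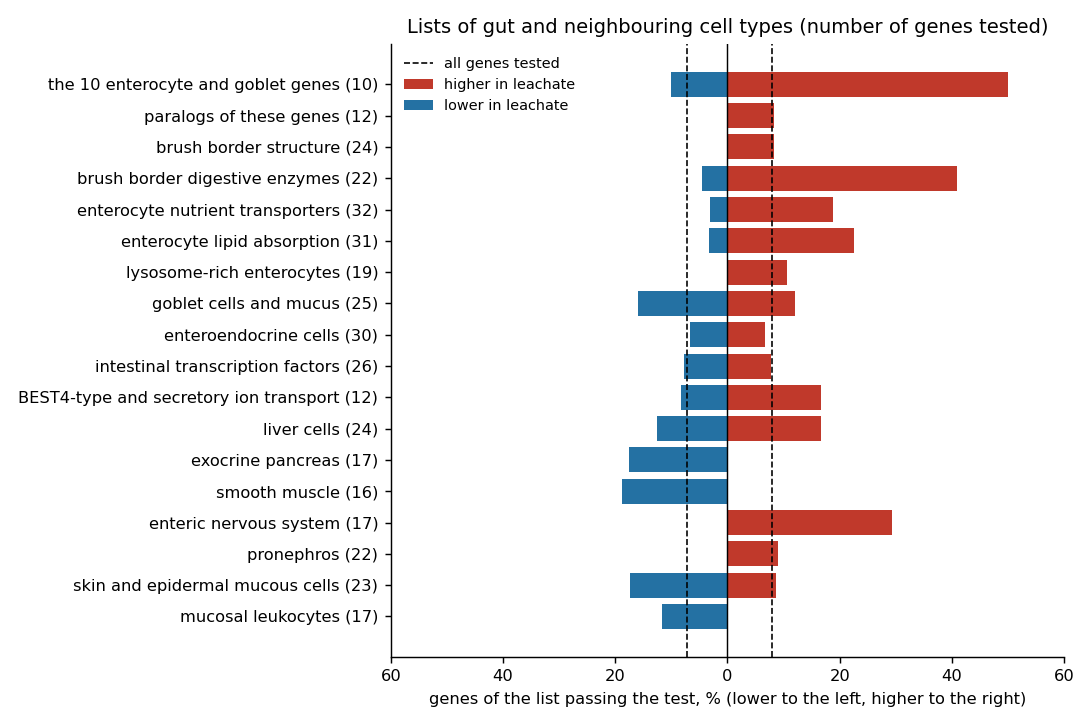
Share of each list's tested genes that passed an adjusted p of 0.05, higher in leachate pools to the right and lower to the left, with the number tested in brackets. Dashed lines mark the same share over all genes tested (7.87% and 7.29%). The 10 enterocyte and goblet genes and the digestive enzymes reach furthest to the right, with 5 of 10 and 9 of 22 genes. The lists were written with earlier results of these data known.

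Markers of neighbouring tissues were read beside these results. The all-gene shares to set beside these lists are 7.87% higher and 7.29% lower. Without control 2 the all-gene counts were 2063 higher and 1996 lower, against 1871 and 1731 with all pools. Of 17 exocrine pancreas genes 3 passed, all lower (median log2 fold change -0.74), with 9 lower by DESeq2, 15 lower without control 2 and no call without control 1 or any single leachate pool. Of 24 liver genes 4 rose and 3 fell, and 9 fell without control 2; their sum was 7240 to 7859 TPM in leachate pools and 7734 to 8506 TPM in control pools. Skin and epidermal mucous cell genes gave 2 higher and 4 lower of 23, and summed to between 14060 and 17936 TPM in leachate pools and between 20635 and 24049 TPM in control pools. Their lower calls numbered 2 without leachate 2 or leachate 3, and none was higher without leachate 2, leachate 3 or control 1.

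In smooth muscle 3 of 16 genes passed, all lower, with sums of 599 to 613 TPM in leachate pools and 492 to 577 TPM in control pools. TPM sums in this and the other lists are not TMM-scaled and can differ in direction from the fit. The median log2 fold change of the smooth muscle list in the fit was -0.12. In the enteric nervous system list 5 of 17 genes passed, all higher, but 1 or 2 once any single pool was left out. Its genes summed to 112 to 143 TPM in leachate pools and 86.9 to 104 TPM in control pools. The pools are of whole larvae, and which tissue the reads of these genes came from was not tested. In pronephros, with cdh17 left out as 1 of the 10 genes, 2 of 22 passed, both higher, a share of 9.09% beside 7.87% over all genes. That list summed to 212 to 291 TPM in leachate pools and 200.3 to 241 TPM in control pools. Among mucosal leukocyte genes 2 of 17 passed, both lower, with sums of 193 to 229 TPM in leachate pools and 181 to 197 TPM in control pools. No smooth muscle gene was called lower with library totals or without leachate 2, leachate 3 or control 1, no pronephros gene higher without leachate 1 or leachate 2, and no leukocyte gene lower without leachate 2 or control 3. Defining markers did not pass for liver (fabp10a, log2 -0.29), exocrine pancreas (ela2, -0.88, adjusted p = 0.0512), smooth muscle (myh11a, -0.06) or pronephros (slc20a1a, -0.003). Nor did those for epidermis (krt4, -0.44, with leachate pools below all controls), neutrophils (mpx, -0.09) or macrophages (mpeg1.1, 0.25). Their part in the results for the 10 genes was not tested.

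The mean profile of the 10 genes over the 6 pools was also set against 9488 other named genes of at least 10 CPM. The nearest by root mean square difference of centred log2 CPM were dbi (0.044), tram1 (0.048), chata (0.051), idh1 (0.052) and slc13a1 (0.056). dbi encodes an acyl-CoA binding protein and tram1 a protein of the secretory translocon. The profile averages genes that rose with cdx1b and muc2.1, and likeness over 6 pools is a description.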

How the data were processed

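RNA was rRNA-depleted and its libraries stranded, per the labels' protocols, which ask for an integrity number over 7.0. The submitters' processing notes name HISAT2, StringTie 2.1.3b, DESeq2 and the build GRCz11, with no role. How reads were assigned to genes, and any use of strand, are not stated there. Per the file headers, the authors deposited read counts, TPM and FPKM per gene. The lowest count in the table is 1. FPKM served only to derive relative gene length.

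Read counts were fitted with edgeR 4.0.16 (R 4.3.3) using TMM scaling, filtering by expression, and robust quasi-likelihood tests adjusted by Benjamini-Hochberg over 23761 genes. The SE is the size of the log2 fold change divided by the square root of F. DESeq2 1.42.0 and limma 3.58.1 were alternatives. The fit was also run on simulated counts with planted changes, and no result given here rests on that run. A count of 3 equals 0.0623 to 0.0817 CPM. Replicates are described as biological, and counts of any pair differed beyond sampling noise (chi-square over its degrees of freedom was 8.56 or more).

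Genes named were the 10, their paralogs, from each other list up to 2 called genes per direction with the largest change and a mean CPM of at least 2, and the 5 of most similar profile. Those that lost their call in an alternative are mostly only counted, which was decided once the alternatives were known. Genes outside that rule are marked or given as not passing. Genes and lists were chosen with earlier results of these data known. ela2 stood in for prss1 as pancreas marker after prss1 was not found. The 17 lists hold 417 symbols, of which 371 were found. The RefSeq table is of GRCz12tu and was used only for neighbours, so no coordinates are given.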

Additional observations from a re-analysis of the deposited data

How the results depend on the processing

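Over 18 alternatives no gene among the 10 that passed the test changed sign, and agr2, anpepb, alpi.1 and cdh17 passed in each. Without control 2 the log2 fold changes of these 4 were 1.51, 0.82, 0.71 and 0.68, in that order, each smaller than with all pools. Between 4 and 7 of the 10 were called higher, the same range as when single pools were left out. The count called lower was 0 with library totals, no filter, the robust option off or an adjusted p under 0.01, and 0 to 1 when single pools were left out. Over all genes, 1871 higher and 1731 lower calls became 2809 and 868 with library totals, which put the all-gene median at 0.13 on the log2 scale, and 796 and 692 at an adjusted p under 0.01. Without control 2 and leachate 1 together 2648 were higher and 2606 lower. Leaving out single pools gave 970 (control 1) to 2063 (control 2) higher and 896 (leachate 2) to 1996 (control 2) lower. With the replicate block 1317 were higher and 1248 lower, and 5 and 1 of the 10 genes. Deviations of same-numbered pools had correlations of -0.10 to 0.03, so the numbers were not taken to pair the pools. For the 60 other genes picked by the naming rule, 897 of 1077 values stayed on the same side of the threshold, 164 no longer passed and 16 newly passed. Some of these 60 are only counted in the text and not named. Why fabp2, fabp1b.1, slc15a1b and muc2.1 did not pass with all pools was not tested.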
